A study of Mus musculus with 9 samples.

Results

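Ovarian transcripts of mice labelled as Taf4b knockouts were compared with those of wild-type mice, using the 3 arrays titled as TAF4b knockout and the 3 titled as wild type, which are 6 of the 9 arrays of the series. Each array held the RNA of 1 mouse aged 3 weeks, and the remaining 3 arrays, from TAF4b heterozygotes of the same age, entered the fits for the estimate of spread and are otherwise given only as values. Labelled knockouts carry TAF4b knockout as genotype and wild-type mice carry wild type. The strain, the design of the targeted allele and any treatment are not given in the sources used here. RNA was hybridised to GeneChip Mouse Gene 1.0 ST arrays, and 25100 of 28266 probe sets had a gene symbol and were tested.

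Taf4b encodes a variant subunit of TFIID, the complex that binds core promoters and helps to place RNA polymerase II at the start of genes. It is enriched in the gonads, and in the mouse ovary it is known from oocytes and from granulosa cells, the somatic cells that surround and feed the oocyte. At the prepubertal age sampled, an ovary holds many growing follicles whose granulosa cells divide, a theca layer that makes androgens, and a stroma with vessels, immune cells and a surface epithelium.

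The arrays carried the markers of ovary. All 12 oocyte markers and all 12 granulosa markers had mean intensities of 100 or more, and the oocyte gene Zp3, which encodes an egg coat protein, read 4329, 2944 and 4943 in labelled knockouts 1, 2 and 3 and 4469, 3700.4 and 3173 in wild types 1, 2 and 3. Summed over the list, oocyte markers lay between 19825 and 30980.0 in the labelled knockouts and between 23448 and 30505 in wild type. Granulosa markers summed to 30076, 35313 and 28168 in labelled knockouts 1, 2 and 3 and to 34204, 35264 and 35438 in wild types 1, 2 and 3. Both lists overlapped, the granulosa list only through labelled knockout 2. Markers of liver, kidney and pancreas summed to at most 1468 on any of the 6 arrays, with 9 of 10 genes below 100. Median intensity of the 9 arrays ranged from 123.7 to 126.9, and precision is limited by having 3 arrays a group.

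Taf4b itself did not separate the groups. Its probe set (10454077) read 332, 626 and 403 in labelled knockouts 1, 2 and 3, and 494, 635 and 723 in wild types 1, 2 and 3. Labelled knockouts 1 and 3 stood at 53.8% and 65.3% of the wild-type mean and below every wild-type array, while labelled knockout 2 stood at 101.3% and inside the wild-type range. The difference was -0.48 on the log2 scale (SE 0.23, exact permutation p = 0.2, two-sided, n = 3 against 3, where 0.1 is the smallest p possible) and -0.74 without labelled knockout 2. The sources used here do not say whether the probe set lies in the deleted part of the gene. On the authors' deposited table the fold of wild type over knockout was 1.36 at Taf4b, with p = 0.214. Labelled knockout 2 thus reads like wild type at this probe set, which cannot settle its genotype. Taf4b also varied within the other groups: wild type 1 was the lowest wild type, and heterozygotes 1, 2 and 3 read 456, 595 and 574. The groups are called labelled knockout throughout, and every direction includes labelled knockout 2 except where a value without it is printed.

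Genes beside Taf4b were level between the groups. Of the 5 nearest measured genes on either side in the RefSeq gene order, Impact, Hrh4, Zfp521, Ss18 and Psma8 on one and Kctd1, Aqp4, Chst9, Cdh2 and 4921533I20Rik on the other, 0 were called in limma (adjusted p under 0.05; 0 had an unadjusted p under 0.05). The largest difference among them was that of Psma8, a proteasome subunit gene known from testis, at 0.21 (SE 0.13).

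Labelled knockout 2 stood apart from its group at more probe sets than any other of the 6 arrays. At 60 probe sets with 1 symbol it lay more than 1 log2 unit from the nearer of the other 2 arrays of its group, 48 above and 12 below, against 5, 5, 6, 0 and 1 for labelled knockouts 1 and 3 and wild types 1, 2 and 3. Cyp17a1, the enzyme that makes androgens in theca cells, read 555, 3924 and 362 in labelled knockouts 1, 2 and 3 and 419, 536 and 338 in wild type. Scd1, a fatty acid desaturase, read 173, 1027 and 168 in the labelled knockouts against 162, 159 and 152. Labelled knockout 2 was far above every other array at both genes. Without it the groups overlapped at Cyp17a1, while at Scd1 labelled knockouts 1 and 3 were slightly above wild type. Gas5, next in distance, read 44.3, 203 and 40.4 in the labelled knockouts and 31.65, 111 and 141 in wild type. There wild type 1 was low as well. Whether the 60 probe sets share a function was not tested. Pearson correlations of log2 intensity among the 6 arrays were between 0.994 and 0.998.

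Across all probe sets with a symbol, 19 were called (limma, adjusted p under 0.05), which is 0.0757% of those tested. The 3 higher calls were 0.012% and the 16 lower calls 0.0637%. At every one of the 19 the arrays of the groups did not overlap, but 14.3% of all tested probe sets also showed no overlap. The called probe sets stand for 15 genes, 0.0675% of 22231. In the RefSeq annotation 4 of them (E330014E10Rik, AA792892, Pramel34 and Hsd17b11) are on chromosome 5, 3 on X (Magea10, Xlr5a and Xlr5b) and 2 on chromosome 9 (Trpc6 and Plet1), and Slc6a15, Zfp735, Nova1, Slc15a5 and Tapbp are on chromosomes 10, 11, 12, 6 and 17. On the authors' deposited table, the unadjusted p was under 0.05 at all 19. It comes from the same 6 arrays and is not separate support.

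The lower calls were led by copies of PRAME-like genes, a large family of leucine-rich repeat proteins named after a human tumour antigen and expressed in germ cells. AA792892 read 351, 277 and 357 in labelled knockouts 1, 2 and 3 and 848, 965 and 842 in wild types 1, 2 and 3, on 2 probe sets that repeat the same values. Wild type was above every labelled knockout by a wide margin, and labelled knockout 2 was the lowest. The gene fell by 1.44 log2 units (SE 0.10, adjusted p = 0.00289, limma). Pramel34 read 488, 341 and 573 against 1153, 1322 and 1198 and fell by 1.42 (SE 0.16, adjusted p = 0.0279, limma), again lowest in labelled knockout 2 and highest in wild type 2. For E330014E10Rik 3 of 5 probe sets were called, at -1.44, -1.41 and -1.41, while the other 2 stood at -0.96 (adjusted p = 0.0682, limma) and -0.58 (adjusted p = 0.211). The 7 called probe sets of AA792892, Pramel34 and E330014E10Rik correlated at 0.989 or more across the 9 arrays. These near-identical copies on mouse chromosome 5 can share probes, so their values are uncertain as separate events. In whole ovaries, fewer cells of a type and less RNA per cell cannot be told apart. The summed oocyte markers given above overlapped between the groups, with 7 of 12 below wild type. Of the 12, 0 were apart, where 7.92% of all genes were apart on the lower side and 6.79% on the higher. Other oocyte lists had more genes apart on the lower side, at 25% of the maternal complex and NLRP list and 50% of the piRNA list. The early follicle transcription factors and the zona pellucida and secreted factor list had 23.1% and 21.4%. The heterozygotes 1, 2 and 3 read 725, 749 and 725 at AA792892, between the groups.

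One more called member, OTTMUSG00000010333, which the file describes as similar to oogenesin 2, read 127, 118 and 127 against 228, 259 and 205. No labelled knockout came near wild type there, and the probe set fell by 0.89 (SE 0.11, adjusted p = 0.0423, limma). Of 23 measured PRAME-like and oogenesin genes, 4 fell and 0 rose, where 0.0675% of all genes were called. Those 4 include AA792892, Pramel34 and E330014E10Rik, which can share probes. In all, 17 lay below wild type, called ones included, with a median of -0.19 against -0.0036 over all genes. That median was -0.09 without labelled knockout 2. Over only those members left after dropping the dimmest 25% of probe sets, by mean over the 9 arrays, it was -0.49. That is another, smaller set of genes and cannot be set against the median of all 23. In 9 of the 23 (39.1%) all 3 labelled knockouts were below all wild types, against 7.92% of all genes, and the number was again 9 without labelled knockout 2, when 15.08% of all genes did so. Oog2, one of the oogenesins, read 559.7, 428 and 592 against 769, 705 and 651 (difference -0.44, adjusted p = 0.25, limma). Pramel31 went the other way at low intensity, with 43.5, 16.6 and 26.3 against 12.5, 14.2 and 10.8, a difference of 1.10 that did not pass (adjusted p = 0.25, limma); 6.79% of all genes had all labelled knockouts above all wild types.

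Germline genes of the X chromosome made up the next called group. The Xlr genes, named X-linked lymphocyte-regulated, lie in a multicopy cluster and some of them encode proteins of meiotic chromosomes related to Sycp3. Because the copies are so alike, the 300 bases around the start of Xlr5a (minus strand, chrX:73117653-73117952) and Xlr5b (plus strand, chrX:73148591-73148890) are shown as RefSeq gives them on GRCm38.p6, 250 bases before the start and 50 after it, 5′ to 3′, with the longest shared run in capitals.
Xlr5a: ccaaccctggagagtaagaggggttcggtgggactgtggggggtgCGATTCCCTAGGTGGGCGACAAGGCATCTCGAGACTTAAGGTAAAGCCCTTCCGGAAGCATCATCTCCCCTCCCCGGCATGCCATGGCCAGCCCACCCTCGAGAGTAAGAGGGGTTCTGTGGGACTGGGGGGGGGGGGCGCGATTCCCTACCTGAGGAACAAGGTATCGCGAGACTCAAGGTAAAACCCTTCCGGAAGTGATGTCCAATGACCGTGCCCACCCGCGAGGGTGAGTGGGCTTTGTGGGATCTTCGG
Xlr5b: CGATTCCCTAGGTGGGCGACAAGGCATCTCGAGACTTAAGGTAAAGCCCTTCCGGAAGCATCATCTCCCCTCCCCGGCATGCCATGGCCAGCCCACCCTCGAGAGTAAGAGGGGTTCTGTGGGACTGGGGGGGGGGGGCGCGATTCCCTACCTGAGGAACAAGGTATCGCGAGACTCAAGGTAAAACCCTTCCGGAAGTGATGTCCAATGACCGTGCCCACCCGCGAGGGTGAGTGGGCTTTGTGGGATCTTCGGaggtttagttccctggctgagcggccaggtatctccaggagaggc
The run is 255 bases long and the windows are offset by 45 bases, so the annotated starts lie at different points of one repeated stretch. In these windows there was no TATAAA in the last 50 bases before the start.

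Xlr5b read 97.9, 77.7 and 99.5 in labelled knockouts 1, 2 and 3 and 179, 191 and 158 in wild type, and fell by 0.94 log2 units (SE 0.11, adjusted p = 0.0337, limma). Xlr5a read 87.6, 73.8 and 96.04 against 156, 161 and 138 and fell by 0.83 (SE 0.10, adjusted p = 0.0423, limma). The order of the 6 arrays was the same in both, lowest in labelled knockout 2 and highest in wild type 2, and since such copies can share probes the pair is uncertain as separate genes. Magea10, a melanoma antigen family gene of the X chromosome, read 67.6, 65.4 and 68.98 against 119, 109 and 111 and fell by 0.74 (SE 0.06, adjusted p = 0.0084, limma). Its labelled knockouts lay within 4 intensity units of each other and far below wild type.

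Further copies pointed down without passing. Xlr3c read 105, 94.6 and 99.1 against 135, 148 and 159.8 (difference -0.57, adjusted p = 0.0564, limma). Xlr3b stood at -0.74 and Xlr3a at -0.58, and Mageb4 at -0.67. Of 41 measured Xlr, Mage, Slx and Rhox genes of the X chromosome, 3 fell and 0 rose, where 0.0675% of all genes were called. All labelled knockouts were below all wild types at 9 (22%), against 7.92% of all genes, and the median was -0.04. It was -0.09 without labelled knockout 2 and -0.01 without labelled knockout 3. Over only those members left after dropping the dimmest 25% of probe sets, by mean over the 9 arrays, it was -0.49. That is another, smaller set of genes and cannot be set against the median of all 41. The whole chromosome gave less of this: 10.2% of 794 X-linked genes were below wild type without overlap, and its median was -0.0172. With 31 of the 41 genes below an intensity of 100, much of this family is dim on the array.

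Single members of other families fell while their families stayed level. Slc6a15, a carrier of branched-chain amino acids and proline, read 388, 453 and 323 in labelled knockouts 1, 2 and 3 and 662, 796 and 740.3 in wild type, without overlap. It fell by 0.93 (SE 0.12, adjusted p = 0.0423, limma). Slc15a5, an orphan of the peptide transporter family, read 81.6, 78.9 and 81.5 against 131, 131 and 119 and fell by 0.65 (SE 0.06, adjusted p = 0.0084, limma). The 3 labelled knockouts of Slc15a5 were nearly equal. No other of the 57 measured amino acid and peptide carriers of the solute carrier families passed, and their median was -0.02. Over all genes 0.0675% were called. Slc7a6, a carrier of cationic and neutral amino acids, had the next smallest p, with 935, 1240.0 and 1054 against 1227, 1263 and 1426 and overlapping groups.

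Trpc6, a calcium-permeable channel opened by diacylglycerol, read 419, 424 and 375 against 607, 618 and 636 and fell by 0.61 (SE 0.06, adjusted p = 0.0247, limma). It was the one called gene of 22 TRP channels, whose median was 0.01, where 0.0675% of all genes were called. Nova1, an RNA-binding regulator of alternative splicing best known in neurons, read 138, 133 and 143 against 195, 204 and 211 and fell by 0.55 (SE 0.06, adjusted p = 0.0247, limma). Its other probe set was dimmer, with 74.1, 72.7 and 65.6 against 74.3, 93.4 and 93.2, and stood at -0.29 (adjusted p = 0.381, limma). Zfp735, a zinc finger gene, read 99.2, 87.2 and 111 against 199, 199.9 and 193, with wild type within 7 units, and fell by 1.001 (SE 0.11, adjusted p = 0.0279, limma). Zinc finger genes at large did not share its direction: 224 of 337 lay above wild type, and the median was 0.04. Of the 337, 1 fell and 0 rose, where 0.0675% of all genes were called.

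The 3 genes that rose differ in function. Plet1, a membrane protein gene named for its expression in placenta and found in several epithelia, read 283, 281 and 261 in labelled knockouts 1, 2 and 3 and 114, 133 and 148 in wild type, and rose by 1.07 (SE 0.13, adjusted p = 0.0363, limma). Every labelled knockout exceeded every wild type by more than 100 units. Hsd17b11, a dehydrogenase of steroids found on lipid droplets, read 928, 1030.3 and 933 against 694, 618 and 692 and rose by 0.53 (SE 0.07, adjusted p = 0.0423, limma). Tapbp, which encodes tapasin, the chaperone that loads peptides onto MHC class I, read 1302, 1280.0 and 1235 against 1017, 952 and 954 and rose by 0.38 (SE 0.05, adjusted p = 0.0466, limma). Neither gene overlapped between the groups. The plot of called genes by array shows how narrow the wild-type spread is beside these distances.

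**Figure D1:**
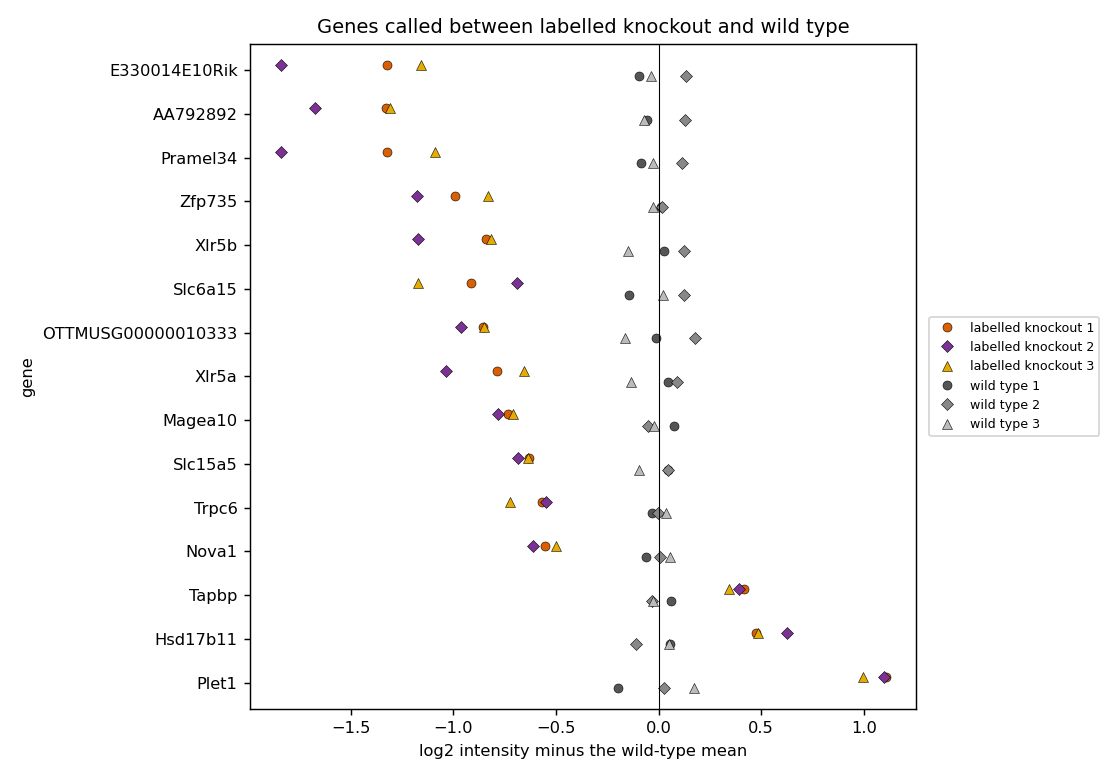
Log2 intensity minus the wild-type mean (x axis) of the 15 called genes (y axis, the probe set with the lowest value where a gene has several), 1 point per array, coloured points for the 3 labelled knockouts and grey points for the 3 wild types. All labelled knockouts lie left of wild type for 12 genes and right for Plet1, Hsd17b11 and Tapbp, and labelled knockout 2 is the farthest from wild type at the PRAME-like and Xlr5 genes.

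The start regions of called genes were searched for short promoter words. RefSeq windows on GRCm38.p6 were found for 8 of the 12 genes that fell and for all 3 that rose. Plet1 is shown because it alone of these 11 holds TATAAA, in capitals, in the 50 bases before its start (chr9:50494275-50494574, plus strand, 5′ to 3′).
Plet1: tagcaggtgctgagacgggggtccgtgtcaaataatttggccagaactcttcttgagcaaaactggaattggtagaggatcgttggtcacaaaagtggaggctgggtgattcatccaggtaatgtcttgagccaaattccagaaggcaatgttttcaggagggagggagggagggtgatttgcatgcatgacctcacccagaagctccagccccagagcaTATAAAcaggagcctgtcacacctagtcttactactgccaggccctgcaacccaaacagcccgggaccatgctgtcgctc
The word begins 30 bases before the annotated start. Among all 27025 genes of the table, 3.1% hold TATAAA there. The GC-box word GGGCGG, on either strand, was in 0 of 8 windows of genes that fell, in 2 of 3 of genes that rose, and in 38.2% of all genes, or 53% of the 15855 measured genes with a window. The AP-1 word TGANTCA was in 0 of 8, in 1 of 3 and in 9% of all. Xlr5a and Xlr5b count separately here although their windows share most bases, and these matches are descriptions of sequence and carry no test.

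How far the calls rest on single arrays was read from 9 fits, each without 1 array. AA792892 was called in 9 of 9, Magea10 and Slc15a5 in 7 of 9, and Trpc6 and Nova1 in 3 of 9. The rest were called in 2 or fewer, and Tapbp, Hsd17b11 and OTTMUSG00000010333 in 0 of 9. The number of calls went from 19 to 2 without labelled knockout 1 or wild type 2, to 4 without heterozygote 2 or 3, and to 6, 7 and 8 without wild type 1, wild type 3 and heterozygote 1. Without labelled knockout 2 there were 20 calls, 13 of them shared with the 19, and the signs of all 19 were unchanged. With only the 6 arrays compared, limma called 0 (2616 had an unadjusted p under 0.05), and 0 again without labelled knockout 2 (3598 under 0.05), while an equal-variance test on linear intensities called 4. In the fit of all 9 arrays 2675 probe sets had an unadjusted p under 0.05, 1227 higher and 1448 lower.

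At the 7 calls gained without labelled knockout 2, that array had lain either near wild type or farther from it than its group. Mamld1, which encodes a coactivator-like protein of gonadal development, read 589 and 583 in labelled knockouts 1 and 3, 793 in labelled knockout 2, and 855, 824 and 837 in wild type. Fbxo47, an F-box gene of germ cells, read 132 and 129 in labelled knockouts 1 and 3, 84.7 in labelled knockout 2 and 90.2, 95.5 and 88.6 in wild type. In both, labelled knockout 2 sat nearer to wild type than to its own group. Olfr97 and Qrfprl also read closer to wild type on it, with 40.3 and 138 against 25.7 and 26.9, and 109 and 104, on labelled knockouts 1 and 3. The oocyte homeobox gene Obox7, Stk31 of the germline and 1 more probe set of E330014E10Rik were lower on it than on the rest of its group, with 92.3, 32.8 and 359.6. Fbxo47 was the one higher call, and these genes are named after their values were seen.

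Beyond the called genes, 314 uncalled probe sets were higher and 450 lower without overlap at an unadjusted p under 0.01 (probe sets of 1 symbol, predicted genes left out), and the largest of them are given as values that did not pass. Nlrp4e, an oocyte NLR gene, read 47.5, 35.3 and 118 in labelled knockouts 1, 2 and 3 and 186, 161 and 197 in wild type (-1.63, SE 0.45). Mov10l1, the helicase that starts piRNA processing, read 61.9, 59.6 and 71.98 against 182, 153 and 95.4 (-1.11, SE 0.21). Labelled knockouts were close together at Mov10l1 and spread at Nlrp4e, where array 3 was higher. Gpx6 and Olfr1300-ps1 stood at -1.07 and -1.08, Nlrp9c at -1.01, Obox7 at -0.995, and the F-box gene Fbxw18 at -0.95. Sycp3, a core protein of the synaptonemal complex, read 38.7, 33.4 and 35.4 against 97.2, 74.7 and 41.6, so that wild type 3 lay near the labelled knockouts. Dynap, Rasl10a, Nrsn1 and Phex, an endopeptidase gene, stood between -0.99 and -0.87, and in the last 3 labelled knockout 2 was nearest to wild type.

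On the higher side Ovgp1, the oviduct glycoprotein, read 267, 314 and 457 against 38.2, 143 and 103 (2.03, SE 0.53, adjusted p = 0.223, limma), and wild type 1 was the lowest of the 6. Its list of oviduct secretory markers did not share this size: 5 of 10 lay above wild type, the median was 0.01, and 6 of 10 were below 100. The cysteine protease gene Ctss and the lysozyme gene Lyz2 of macrophages stood at 0.97 and 0.97, highest in labelled knockout 3. Upk1b, a uroplakin, read 504, 473 and 443 against 317, 287 and 229.7 (0.78, adjusted p = 0.0754, limma). Chrm4, Lgals2, A2ml1, the interferon-induced GTPase genes Tgtp1 and Iigp1, the metallothionein gene Mt2 and Hsd17b2, which inactivates estradiol, stood between 0.70 and 0.78. All of these missed the threshold, and the plot of the largest uncalled differences gives each array.

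**Figure D2:**
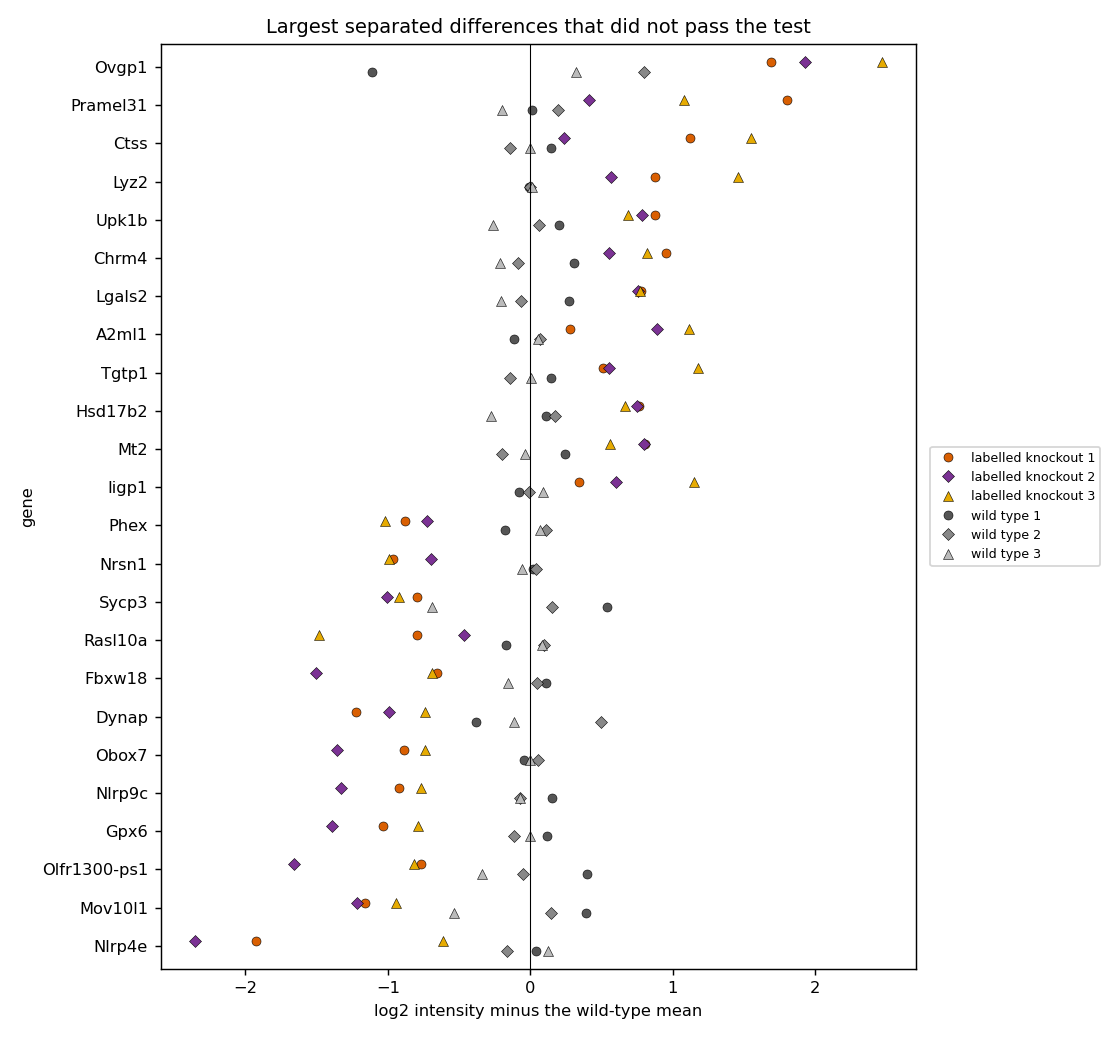
Log2 intensity minus the wild-type mean (x axis) of the 12 higher and 12 lower genes with the largest differences among those that were uncalled, did not overlap and had an unadjusted p under 0.01 (y axis), 1 point per array. Ovgp1 has the widest wild-type spread and Nlrp4e the widest labelled knockout spread on the lower side.

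Gene lists were described by the number of members above or below wild type, since outside the families above few single members passed. Replication and mitosis genes lay below wild type almost without exception. All 42 measured genes of replication licensing and DNA synthesis were below, with a median of -0.25 against -0.0036 over all genes and -0.27 without labelled knockout 2. In 29 of the 42 (69%) all labelled knockouts were below all wild types, against 7.92% of all genes, and in 32 without labelled knockout 2, against 15.08%, although 0 passed in limma (26 had an unadjusted p under 0.05, and 5 passed with array weights). On average over these genes the arrays labelled knockout 1, 2 and 3 stood at -0.19, -0.10 and -0.07 relative to the mean of the 6 arrays, and wild types 1, 2 and 3 at 0.08, 0.14 and 0.14.

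Mcm5, a subunit of the replicative helicase, read 677, 766 and 773 in labelled knockouts 1, 2 and 3 and 928, 944 and 975 in wild type (-0.36, SE 0.06, adjusted p = 0.0906, limma). Mcm10, which helps the helicase to start, read 353, 376 and 347 against 432, 442 and 445 (-0.29, adjusted p = 0.105, limma). The licensing factor gene Cdc6 read 343, 346 and 353 against 411, 439 and 455 (-0.32), and Lig1, the ligase that joins Okazaki fragments, stood at -0.28. In all 4 the groups were apart and labelled knockout 2 sat with its group, unlike at Taf4b.

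Of 40 mitosis genes 39 lay below wild type, with a median of -0.20 and, without labelled knockout 2, -0.26. There labelled knockout 2 was nearer to wild type: the list stood at -0.16, 0.02 and -0.16 on the labelled knockouts and at 0.04, 0.16 and 0.10 on wild type. In limma 0 passed (22 had an unadjusted p under 0.05, and 3 passed with array weights). Groups did not overlap, on the lower side, at 17 of 40 (42.5%) with all arrays, against 7.92% of all genes, and at 34 without labelled knockout 2, where the share of all genes was 15.08%. The mitotic kinase gene Plk1 read 911, 999 and 914 against 1148, 1219 and 1138 (-0.31, adjusted p = 0.128, limma). Birc5, of the chromosomal passenger complex, stood at -0.36, and the kinetochore genes Nuf2 and Spc24 at -0.29 each. Among replication-dependent histone genes, 41 of 50 were below wild type, with a median of -0.05, or -0.10 without labelled knockout 2. Of these genes 6 (12%) were below without overlap, against 7.92% of all genes, and 21 without labelled knockout 2, against 15.08% of all genes. The smallest p belonged to H2bc9 at -0.20, which did not pass. Markers of granulosa cells, the dividing cells of the follicle, summed to 30076, 35313 and 28168 in labelled knockouts 1, 2 and 3. In wild type they summed to between 34204 and 35438. Of these markers 10 of 12 lay below wild type, and their part in the result was not tested.

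Many replication promoters hold E2F words. The words searched, on both strands, were TTTCCCGC, TTTCGCGC, TTTGCCGC and TTTGGCGC, spellings of the site bound by E2F factors, which drive S-phase genes; these words were chosen after the values were seen. Mcm5 (chr8:75109259-75109558, plus strand) and Cdc6 (chr11:98907901-98908200, plus strand) are shown as examples, with the words, or overlapping words, in capitals, from RefSeq on GRCm38.p6, 5′ to 3′.
Mcm5: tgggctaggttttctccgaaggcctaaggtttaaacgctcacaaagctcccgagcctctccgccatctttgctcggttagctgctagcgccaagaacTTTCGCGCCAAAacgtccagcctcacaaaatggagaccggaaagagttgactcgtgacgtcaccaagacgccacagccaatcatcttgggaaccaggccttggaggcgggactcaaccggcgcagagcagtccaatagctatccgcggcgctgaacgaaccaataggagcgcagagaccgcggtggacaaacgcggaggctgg
Cdc6: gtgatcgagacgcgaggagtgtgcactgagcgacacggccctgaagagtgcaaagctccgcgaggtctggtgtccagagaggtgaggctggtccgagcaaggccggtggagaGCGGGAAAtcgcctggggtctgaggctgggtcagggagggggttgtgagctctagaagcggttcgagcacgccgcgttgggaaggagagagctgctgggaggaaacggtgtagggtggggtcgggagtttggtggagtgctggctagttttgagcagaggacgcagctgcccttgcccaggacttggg
Of 33 replication genes with a window 15 (45.5%) held a word, against 549 (3.5%) of the 15855 measured genes with a window. The mitosis list, which lay below wild type as well, held one in 1 of 33 windows (3%). Both lists were rich in GGGCGG, at 78.8% each.

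**Figure D3:**
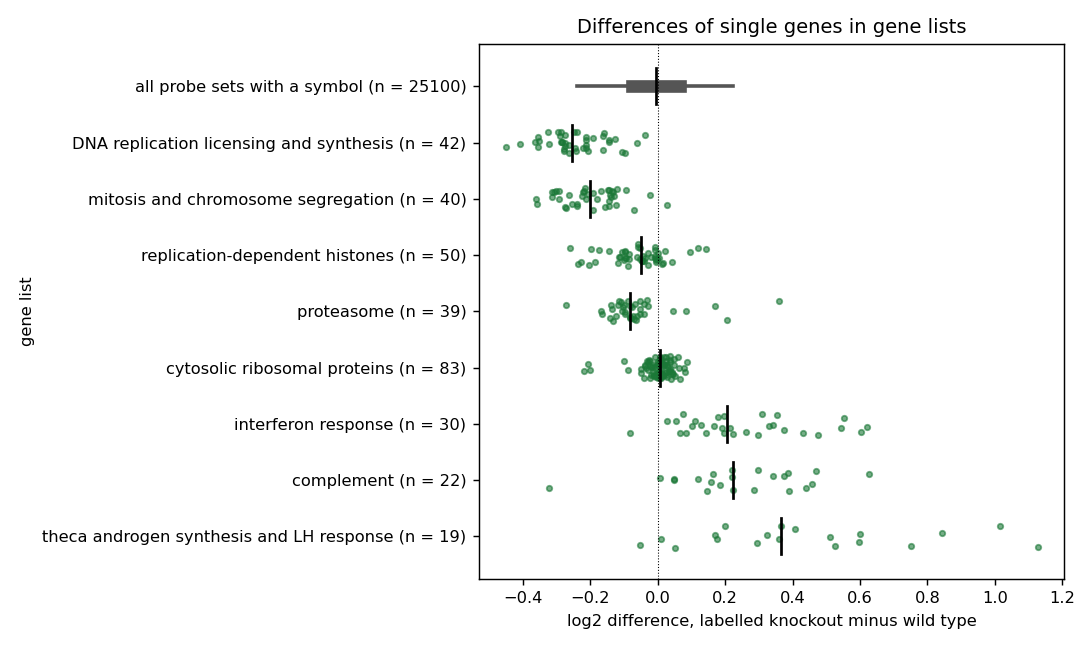
Log2 difference, labelled knockout minus wild type (x axis), of each gene in 8 lists (points; y axis), with the list median as a vertical bar; the grey bar gives the middle 50% and the grey line the 5th to 95th percentile of all tested probe sets. The 42 replication genes all lie below 0, ribosomal protein genes gather around 0, and interferon, complement and theca genes lie above 0 with the exceptions given in the text.

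Oocyte genes gave unlike pictures by family. The 12 oocyte markers had a median of -0.09, and Zp1, Gdf9 and Ooep stood between -0.04 and 0.02. Without labelled knockout 2 the median was 0.10. That array was lowest of the labelled knockouts at all 3 of Zp1, Zp2 and Zp3, the egg coat genes, with 1783, 2912 and 2944. The subcortical maternal complex and oocyte NLRP list lay below wild type at 17 of 20, with a median of -0.26 that became -0.03 without labelled knockout 2. Within it the Nlrp9 genes were apart with that array or without it: Nlrp9c read 398, 299 and 442 against 836, 717 and 715 (-1.01, adjusted p = 0.0682, limma) and -0.85 without it, and Nlrp9a stood at -0.80 and -0.63. Neither passed, and whether these related copies share signal was not tested.

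Most genes of the piRNA and germ cell helicase list lay below wild type. Of 20 genes 16 were below wild type, 10 of them without overlap (50%, against 7.92% of all genes), also 10 without labelled knockout 2, when the share of all genes was 15.08%, and the median went from -0.32 to -0.23. Ddx25, a helicase of germ cells, read 84.1, 70.9 and 85.03 against 110.3, 104 and 95.7 (-0.37). Tdrd9, which silences transposons, read 116, 85.8 and 106 against 168, 132 and 133 (-0.49), and Asz1, another piRNA factor, read 107, 65.7 and 94.8 against 138, 128 and 129 (-0.59). In each, labelled knockout 2 was the lowest array, and none passed. Early follicle transcription factors, a list that holds Taf4b itself and shares Taf9b and Taf7l with the TFIID list, gave 10 of 13 below and a median of -0.32, or -0.18 without labelled knockout 2.

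The TFIID partners of Taf4b moved little as a list. Of 25 subunits, TBP relatives and cofactors 14 lay below wild type, the median was -0.01, and 0 passed in limma (5 had an unadjusted p under 0.05). Groups were apart on the lower side at 4 (16%, against 7.92% of all genes) and on the higher side at 1 (4%, against 6.79%). Taf9b, a paralog of Taf9, read 577, 478 and 559.5 against 777, 733 and 645 (-0.42, adjusted p = 0.21, limma). Taf3 read 586, 559 and 624 against 698, 662 and 676 (-0.20). Taf7 read 157, 156 and 171.01 against 202, 197 and 171.24 (-0.23), apart by a narrow margin. Taf7l, a germ cell relative of Taf7, was dim at 17.96, 15.99 and 12.8 against 18.1, 23.2 and 21.9.

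Most theca genes lay above wild type. In the theca androgen and luteinizing hormone (LH) response list 18 of 19 genes lay above wild type, 9 of them without overlap (47.4%, against 6.79% of all genes), with a median of 0.36 and 0.29 without labelled knockout 2, and 0 passed in limma (8 had an unadjusted p under 0.05). Lhcgr, the LH receptor, read 460.3, 659 and 438 in labelled knockouts 1, 2 and 3 and 349.5, 339 and 375 in wild type (0.53, SE 0.15). Star, which carries cholesterol into mitochondria, read 247, 486 and 228 against 221, 141 and 106, and Cyp11a1, which cleaves its side chain, read 1030.1, 2919 and 1096 against 782, 703 and 1037. Labelled knockout 2 held the highest value of the 6 at all 3 genes, and at Cyp11a1 the other arrays overlapped. The 8 theca and interstitial markers, which this list also holds, all lay above wild type and summed to between 9888 and 17196 against between 7848 and 8834, and their part in the result was not tested. Fabp3, a fatty acid carrier, was apart without being highest in labelled knockout 2, with 655, 597 and 509 against 437, 434 and 362 (0.51). Hydroxysteroid dehydrogenases as a family had a median of 0.01 over 20 genes, with Hsd17b11, which rose, at 0.53, Hsd17b2 at 0.72 and Hsd3b1 at 0.36. Prlr, the prolactin receptor, and Oxtr, the oxytocin receptor, stood at 0.42 and 0.54, and 14 of 18 prolactin and luteal receptor genes lay above wild type.

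In the list of the follicle-stimulating hormone (FSH) response and estrogen synthesis, 15 of 22 were below wild type and the median was -0.10, or -0.18 without labelled knockout 2. Groups were apart on the lower side at 5 genes (22.7%, against 7.92% of all genes). On the higher side they were apart at 3 (13.6%, against 6.79% of all genes), Nr5a1, Nr0b1 and Gata4. Nr5a1, a nuclear receptor of steroid-making cells, read 1223, 1263 and 1114 against 1037, 929 and 1026 (0.27, adjusted p = 0.211, limma) and did not pass. Fshr, the FSH receptor, read 306, 487 and 237 against 497, 543 and 675 (-0.79, SE 0.23). Inhbb, an inhibin and activin subunit, read 1219.6, 1964 and 751 against 2192, 2019.7 and 2347 (-0.84), and Fst, which binds activin, read 1249.6, 1864 and 1108 against 2034, 2404 and 2369.6 (-0.72). Labelled knockout 2 was closest to wild type at Fshr, Inhbb and Fst, and labelled knockout 3 the lowest. Without labelled knockout 2 the differences were -1.07, -1.19 and -0.94. Hsd17b1, which makes estradiol in granulosa cells, read 2326, 3476 and 1757 against 3339.7, 3527 and 3424, where labelled knockout 2 lay inside the wild-type range.

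Interferon, complement and macrophage genes lay mostly above wild type. In the interferon list 29 of 30 genes were above, 14 of them without overlap (46.7%) against 6.79% of all genes, with a median of 0.21 with and without labelled knockout 2. Gbp2 and Gbp3, guanylate-binding GTPases, read 359, 315 and 327 against 257, 190.3 and 216 and 169, 168 and 173 against 130.4, 90.6 and 115 (0.60 and 0.62). Irf7, an interferon regulatory factor, read 168, 139 and 172 against 132, 107 and 116, and Oasl2 stood at 0.48. At all 4 genes the groups were apart, wild type 1 was the highest of its group, and none of the list passed, with 15 at an unadjusted p under 0.05 and 3 past the threshold with array weights (lowest adjusted p = 0.123, limma). Tapbp, which rose, belongs to the MHC class I list, where 19 of 25 were above wild type with a median of 0.09. H2-T23 read 166, 158 and 161 against 129, 127 and 140.2, and B2m, the light chain of class I, read 3739, 3707 and 4359 against 3209.9, 3425 and 3358.

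Complement genes gave 21 of 22 above wild type, 11 without overlap (50%, against 6.79% of all genes), a median of 0.22 and 0.32 without labelled knockout 2, and 0 passed in limma (11 had an unadjusted p under 0.05, and 1 passed with array weights). C1s1, a protease of the first component, read 458, 394 and 385 against 311, 325 and 305 (0.39, adjusted p = 0.122, limma). The C1q genes, made by macrophages, and the receptor gene C3ar1 followed, with C1qa at 0.39, C1qb at 0.47 and C3ar1 at 0.63. Among MHC class II genes H2-Ab1 read 383, 230.4 and 394 against 204, 206 and 215 (0.65), with labelled knockout 2 near wild type. All 15 macrophage markers lay above wild type and summed to between 2137 and 3015 in the labelled knockouts against between 1771 and 1969.8, with 8 of 15 below 100, and the list shares C1qa and C1qb with the complement list. T and NK markers summed to between 498 and 560.5 against between 502 and 549.7, all 12 of them below 100, their median was -0.02, and 5 lay above wild type. B lymphocyte markers gave 4 of 10 above, a median of -0.01 and 9 of 10 below 100. The one B cell marker that was apart, Ms4a1, read 66.4, 71.1 and 93.7 against 133, 134 and 143 (-0.84, adjusted p = 0.0635, limma) and did not pass. The part of macrophages in the interferon and complement values was not tested.

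Most surface epithelium, collagen and Wnt genes lay above wild type as well. Ovarian surface epithelium markers gave 13 of 16 above, 9 without overlap (56.2%, against 6.79% of all genes), and summed to between 6467 and 7195 against between 4862 and 5874. Mesothelin, Msln, read 201, 200.1 and 218 against 140.2, 152 and 159 (0.46, adjusted p = 0.0564, limma), and the keratin gene Krt19 read 581, 555 and 549 against 426, 367 and 279 (0.67). The proteoglycan gene Lum read 1104, 1034 and 1049.8 against 619, 728 and 776 (0.59, adjusted p = 0.0874, limma). Of 44 collagens 36 were above, with a median of 0.06, and 0 passed in limma (10 had an unadjusted p under 0.05). In the Wnt list 25 of 31 were above, with a median of 0.14, led by Wnt2b, a ligand, at 382, 294 and 335 against 253, 219.8 and 219 (0.54). Igfbp5, which binds insulin-like growth factors, read 3259, 3443 and 3193 against 2586, 1959 and 2119.7 (0.58, adjusted p = 0.0874, limma). Endothelial markers summed to between 5179 and 5642 against between 4699.8 and 5123 and adipocyte markers to between 4708 and 5351 against between 3887 and 4231, and the part of these tissues in the values above was not tested.

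Several families were nearly still. Cytosolic ribosomal protein genes had a median of 0.01 over 83 genes, connexins -0.02 over 20, AP-1 factors 0.01 over 14, and the respiratory chain -0.03 over 82. Proteasome subunits shifted little but together, with 34 of 39 below wild type, 13 without overlap (33.3%, against 7.92% of all genes), and a median of -0.08 with and without labelled knockout 2. Their exceptions included Psmb8 and Psmb10, subunits of the immunoproteasome that interferon induces, at 0.36 and 0.17. Notch genes had a median of 0.05, with the target gene Heyl at 431, 507 and 395 against 574, 684 and 607 (-0.49).

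**Figure D4:**
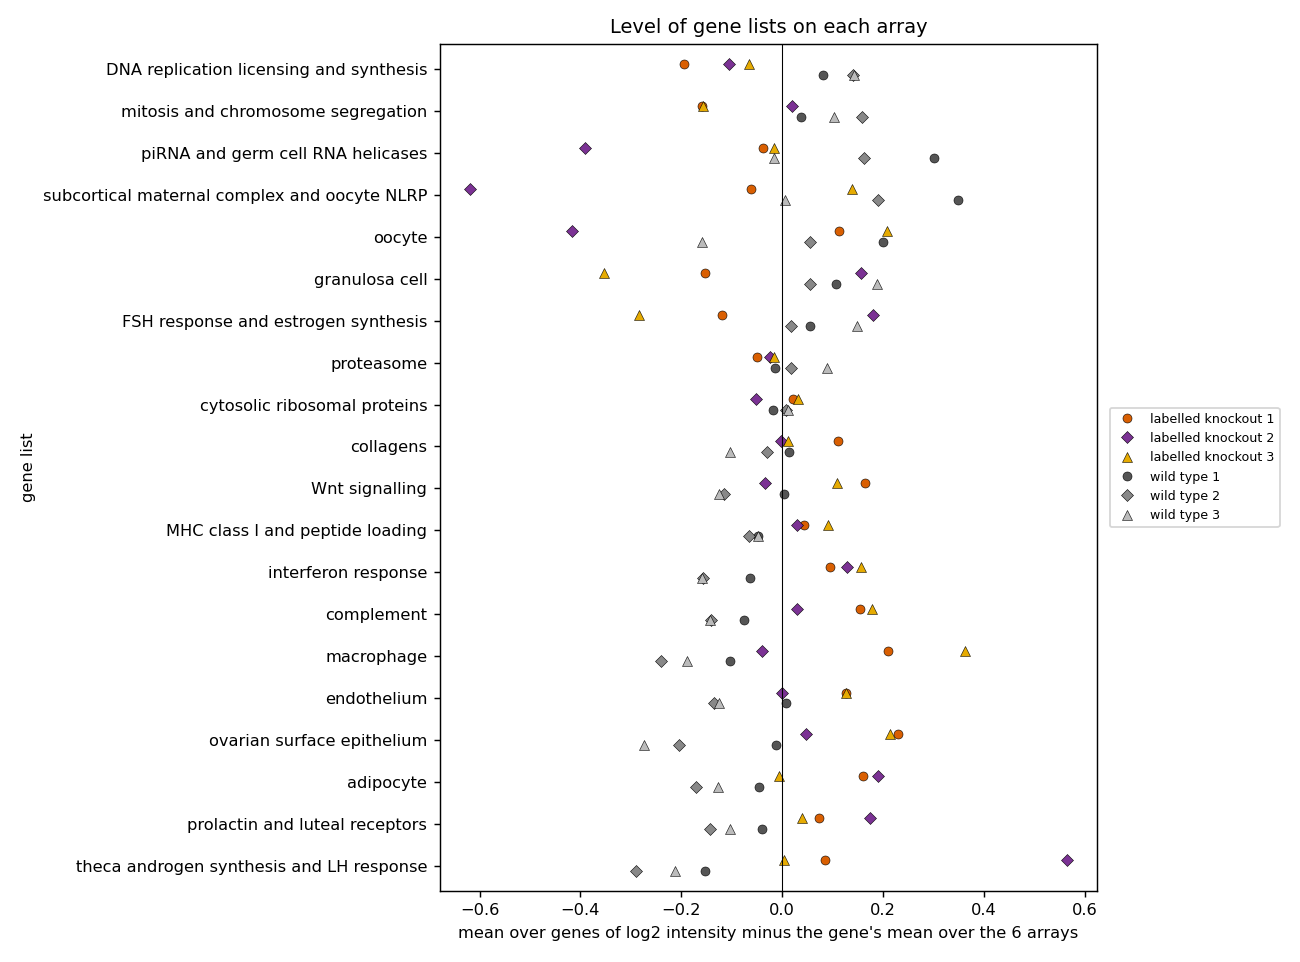
Mean over the genes of a list of log2 intensity minus the gene's mean over the 6 arrays (x axis) for 20 lists (y axis), 1 point per array. Replication and interferon lists separate the groups on all 6 arrays, while at oocyte, granulosa, macrophage and theca lists labelled knockout 2 departs from labelled knockouts 1 and 3.

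Labelled knockout 2 moved some lists across 0 and left others in place. The oocyte marker median went from -0.09 to 0.10 without it, the granulosa median from -0.14 to -0.26, the theca marker median from 0.47 to 0.32 and the macrophage median from 0.33 to 0.47. Replication (-0.25 and -0.27), interferon (0.21 and 0.21) and proteasome genes (-0.08 and -0.08) hardly differed.

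**Figure D5:**
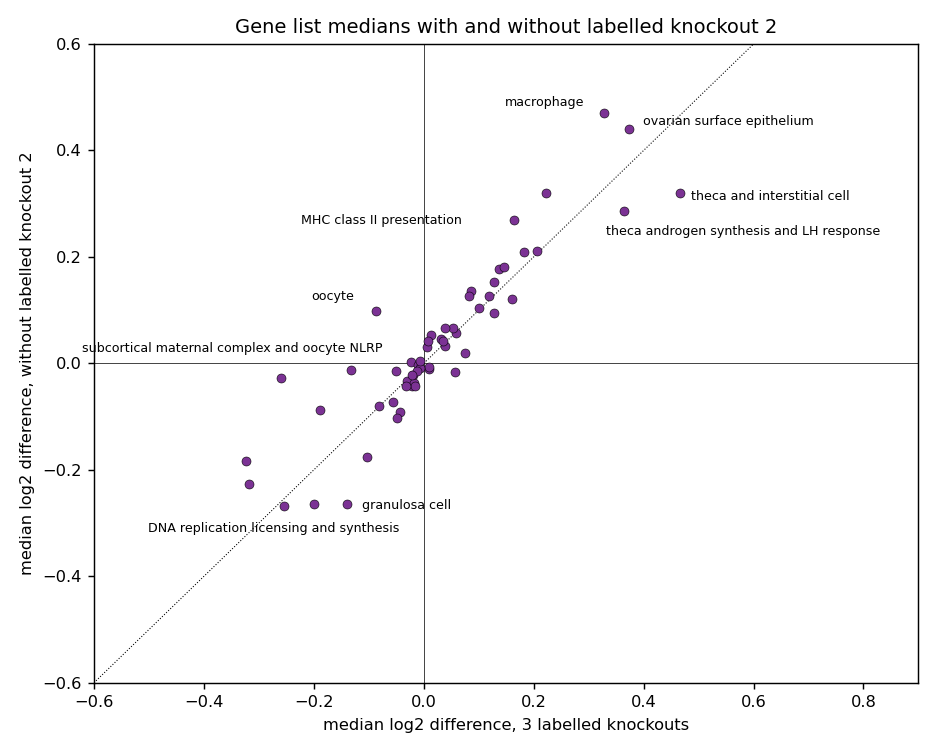
Median log2 difference of each of the 57 gene lists with all 3 labelled knockouts (x axis) and without labelled knockout 2 (y axis), with a dotted line of equality. Macrophage, MHC class II and oocyte lists lie above the line and theca lists below it, and the replication list lies close to it.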

How the data were processed

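Total RNA of 9 ovaries, 1 per mouse, was hybridised to GeneChip Mouse Gene 1.0 ST arrays. Per the series' design text and the submitters' processing notes, the authors made the deposited intensities with RMA in Expression Console 1.1, on a linear scale, so that probes are summarised per probe set and arrays are already normalised. The authors' deposited table adds a fold (wild type over knockout) and an unadjusted p-value per probe set, per the file headers; the sources used here do not name the test behind that p-value. All 169596 values shared by the deposited tables were equal to the ninth decimal, and 0 columns were left unmapped.

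Intensities were taken to log2 and fitted in limma 3.58.1 (R 4.3.3; tables in Python 3.11.15 with pandas 2.3.3) with a term for each of the 3 genotypes over all 9 arrays, and p was adjusted by Benjamini-Hochberg over the 25100 probe sets with a symbol. Of 28266 probe sets 3166 had no symbol and 151 had several, 26 symbols had become dates in the file, and 448 repeat the values of another. Current names came from RefSeq, 18712 probe sets by accession, 2208 by symbol and 1751 by synonym, and 2278 kept the file's name. A gene with several probe sets is counted once, and groups were called apart when the ranges of their 3 arrays did not overlap. On simulated data with known changes the fit recovered 67.2% of 1.5-fold, 94% of 2-fold and 98% of 3-fold changes among 25100 probe sets. The simulated noise was independent and equally wide on every array. In the real data array weights set labelled knockout 2 to 0.5 and heterozygote 1 to 0.4. The simulated shares therefore do not tell what share of real changes was found here.

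The members and gene lists were chosen with earlier results of these data known. Taf4b, its 5 measured neighbours on each side and every called gene are named. So are the 12 largest differences each way among uncalled, named probe sets without overlap and with an unadjusted p under 0.01. Further genes were drawn from the 4 smallest p of each list and the 3 probe sets at which each array lay farthest from its group. Only some of these further genes are printed, and no stated rule chose which. Cyp11a1, Fbxo47, Gata4, Gdf9, Mageb4, Mamld1, Nr0b1, Olfr97, Ooep, Oog2, Qrfprl, Star, Stk31, Xlr3a, Xlr3b and Zp1 to Zp3 were named after their values were seen, as were the E2F words, the counts without labelled knockout 2, and the fits without labelled knockout 2 on the 6 arrays or without it and heterozygote 1. Autosomal genes caught by an Slx name pattern were taken out of the X-linked list. The labels do not say whether replicate numbers pair the samples. Deviations of same-numbered labelled knockout and wild-type arrays correlated at 0.334, 0.123 and -0.088, which cannot decide whether such arrays were processed together. Each mouse is a separate sample, and scan date and slide were not used here as batches.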

Additional observations from a re-analysis of the deposited data

Results flagged for a closer look

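Called probe sets were flagged when all labelled knockouts lay on one side of every wild type and all heterozygotes on the other. Slc6a15, the carrier of branched-chain amino acids that fell against wild type, met this rule. That its difference from the heterozygotes was the larger follows from the rule. The labelled knockouts read 388, 453 and 323, the heterozygotes 903, 924 and 867, and wild type 662, 796 and 740. The difference of labelled knockout minus heterozygote was -1.22 on the log2 scale (adjusted p = 0.0207, limma), against -0.93 for labelled knockout minus wild type and 0.30 for heterozygote minus wild type, which did not pass. All 3 heterozygotes lay above all wild types, as the rule requires.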

How the results depend on the processing

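The number of called probe sets depended on the fit. It was 19 (3 higher, 16 lower) and ranged from 2 to 20 when single arrays were left out (0 to 2 higher, 2 to 19 lower). With the 6 arrays only it was 0 (0 higher, 0 lower), also without labelled knockout 2, and with an equal-variance test on linear intensities 4 (1 and 3). It rose to 30 (6 and 24) without labelled knockout 2 and heterozygote 1, 48 (12 and 36) without the dimmest 25% of probe sets, 32 (7 and 25) with a pseudocount of 16, 34 (4 and 30) with a trended robust prior, and 199 (77 and 122) with array weights, which set labelled knockout 2 to 0.5 and heterozygote 1 to 0.4. With the replicate number as a block it was 3 (0 and 3), where Taf4b stood at -0.48. The labels do not say whether the numbers pair the arrays. Quantile normalisation gave 25, median centring 20, and 1 probe set per gene 14. Taf4b lay between -0.28 and -0.74 with single arrays left out. Over the 21 alternatives the 19 called probe sets kept their sign throughout, with 201 values past the threshold and 194 not. List medians moved by more than their spread in 51 cases and by less in 1146. The causes were not tested.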

Other observations

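Among the 3166 probe sets without a symbol, tested in a fit that covered every probe set, 0 were called in limma and 114 had an unadjusted p under 0.05. The smallest adjusted p was 0.0857. That probe set, described in the file as a clone from an egg library, read 134, 95.8 and 147 in labelled knockouts 1, 2 and 3 and 249, 242 and 232 in wild type, without overlap.

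Several unnamed probe sets varied far more within groups than between them. One, on chromosome 2, read 58.3, 1822 and 60.9 in the labelled knockouts, 253, 1874 and 7084 in wild type and 11387, 2121 and 3292 in the heterozygotes. Another, on chromosome 9, read 10.9, 84.8 and 24.4 in the labelled knockouts, 9.67, 102 and 1262 in wild type and 4775, 98.2 and 238 in the heterozygotes. Labelled knockout 2, wild type 2 and heterozygote 2 read close to each other at both, and why was not tested. Single arrays set the group means at both.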
